A study of Mus musculus with 4 samples.

Results

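The genes described here are 26 genes of cholesterol synthesis, sterol sensing and sterol transport, taken by symbol from a table of 24116 genes in mouse embryonic stem cells. All 26 were found by their Entrez number and all 26 passed the filter on low counts, among 14194 genes tested. The design asks how expression differs without Kdm2a, a histone demethylase. There were 2 libraries from wild-type cells and 2 from a line labelled as a Kdm2a knockout, both of strain 12910la. The titles say knockout, the genotype label of the same libraries says knocked down, and the line is 1 clone, expanded after a Kdm2a guide RNA was transfected and GFP-positive cells were sorted. All cells grew in serum medium with LIF on gelatin, and the labels name no feeder layer. Since that line is 1 clone, a difference that goes with the label cannot be told apart from one of the clone. The labels do not state whether replicate libraries were grown apart, so every spread and p-value given here may reflect technical variation only.

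Cells make cholesterol from acetyl-CoA in a long chain of reactions. A first arm leads through mevalonate to isoprenoid diphosphates, the next joins these to squalene and closes the ring to lanosterol, and the last trims lanosterol to cholesterol. The pathway is governed by its product. SCAP escorts the membrane-bound factors SREBP2 and SREBP1 from the endoplasmic reticulum to the Golgi, where they are cut and freed for the nucleus. When sterols are plentiful, INSIG1 and INSIG2 hold SCAP back, and SREBP2 targets, which include most of the enzymes and Insig1 itself, are transcribed less. At promoters SREBPs are known to act together with the factors NF-Y and Sp1. Dividing cells such as embryonic stem cells need sterols for new membranes, and the mevalonate arm also supplies the lipid anchors of prenylated proteins.

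Total counts per library were 18844246 to 19056529, and each of the 26 genes had between 172 and 14475 counts in a library. Levels below are TMM-scaled CPM, which are counts relative to library size. Kdm2a RNA itself was not lower under the knockout label, at 151 and 184 CPM in wild type and 194 and 261 CPM in the others, so directions here rest on the labels. The 10 markers of embryonic stem cells summed to 7082, 6711, 7443 and 5973 CPM in wild type 1, wild type 2 and the libraries labelled knockout 1 and 2. The last library was thus lowest in this sum too, as it was for most of the genes below. Taken singly, it was the lowest library for 5 of the 10 markers, against 33.4% of all genes. Esrrb was highest there (1139 CPM), and Pou5f1 and Tfcp2l1 were lowest in wild type 2 (812 and 586 CPM). The part of the stem cell markers in those results was not tested. In RNA from bulk cells, fewer cells of a type and less RNA per cell cannot be told apart. Sums in the same order of libraries were 11.2, 5.34, 9.04 and 13.7 CPM for endoderm markers (5 of 9 passed the filter), 45.4, 20.6, 36.2 and 19.8 CPM for fibroblast markers (2 of 8), 13.4, 18.8, 11.4 and 28.3 CPM for mesoderm markers (2 of 5) and 83.2, 116, 112 and 142 CPM for neural markers (4 of 5). Labelled knockout 2 was thus highest in the endoderm, mesoderm and neural sums and lowest in the fibroblast sum, and their part in the results was not tested either. In the fibroblast sum only Col1a1 was lowest there (2.09 CPM). Thy1, which makes up most of that sum, was lowest in wild type 2 (16.4 CPM, against 17.8 CPM in labelled knockout 2). The endoderm markers did not move together. Of those that passed the filter, Sox7 and Dab2 were highest in labelled knockout 2. Gata4 and Gata6 were highest in wild type 1, and Cubn in labelled knockout 1. Below the filter, the endoderm factor Foxa2 had 59 counts in labelled knockout 2 and at most 1 in each other library. Sox17, also below the filter, went the other way, with 14, 3, 6 and 1 counts in the same order of libraries. Afp (endoderm), Lum (fibroblast) and Neurog2 (neural) had 0 counts in every library. Log2 fold changes of the markers named by rule were -0.16 (SE 0.20), 0.19 (SE 0.21) and 0.18 (SE 0.19) for the stem cell factors Sox2, Tfcp2l1 and Esrrb, and 0.11 (SE 0.60), -0.12 (SE 0.46), 0.30 (SE 0.48) and 0.60 (SE 0.39) for Gata4, Thy1, Eomes and Sox1. A count of 0 allows up to 3 counts, or 0.157 to 0.159 CPM, by counting error alone.

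No gene of the pathway passed the test, yet most leaned the same way. The edgeR quasi-likelihood test called 0 of the 26 genes at an adjusted p under 0.05, where it called 0% of all genes tested. At an unadjusted p under 0.05 it gave 1 of 26, Insig1, against 1.7% of all genes. DESeq2, limma-voom and the edgeR likelihood ratio test also called 0 of the 26, each with Insig1 alone at an unadjusted p under 0.05. In the same order 333, 205 and 357 of the 14194 genes tested were under that value. These tests used the same counts, so they are not independent of each other. The log2 fold change, labelled knockout minus wild type, was negative for 23 of 26 genes (88.5%), against 49.5% of all genes. Its median was -0.22 over the 26 genes and 0.00289 over all genes, with a range from -0.85 for Insig1 to 0.21 for Ebp. Both libraries labelled knockout lay below both wild-type libraries for 9 genes (34.6%), against 12.7% of all genes, and above both for 0 genes, against 11.7%. Those 9 were Ggps1, Sqle, Cyp51, Tm7sf2, Lbr, Hsd17b7, Insig1, Srebf1 and Stard4.

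**Figure D1:**
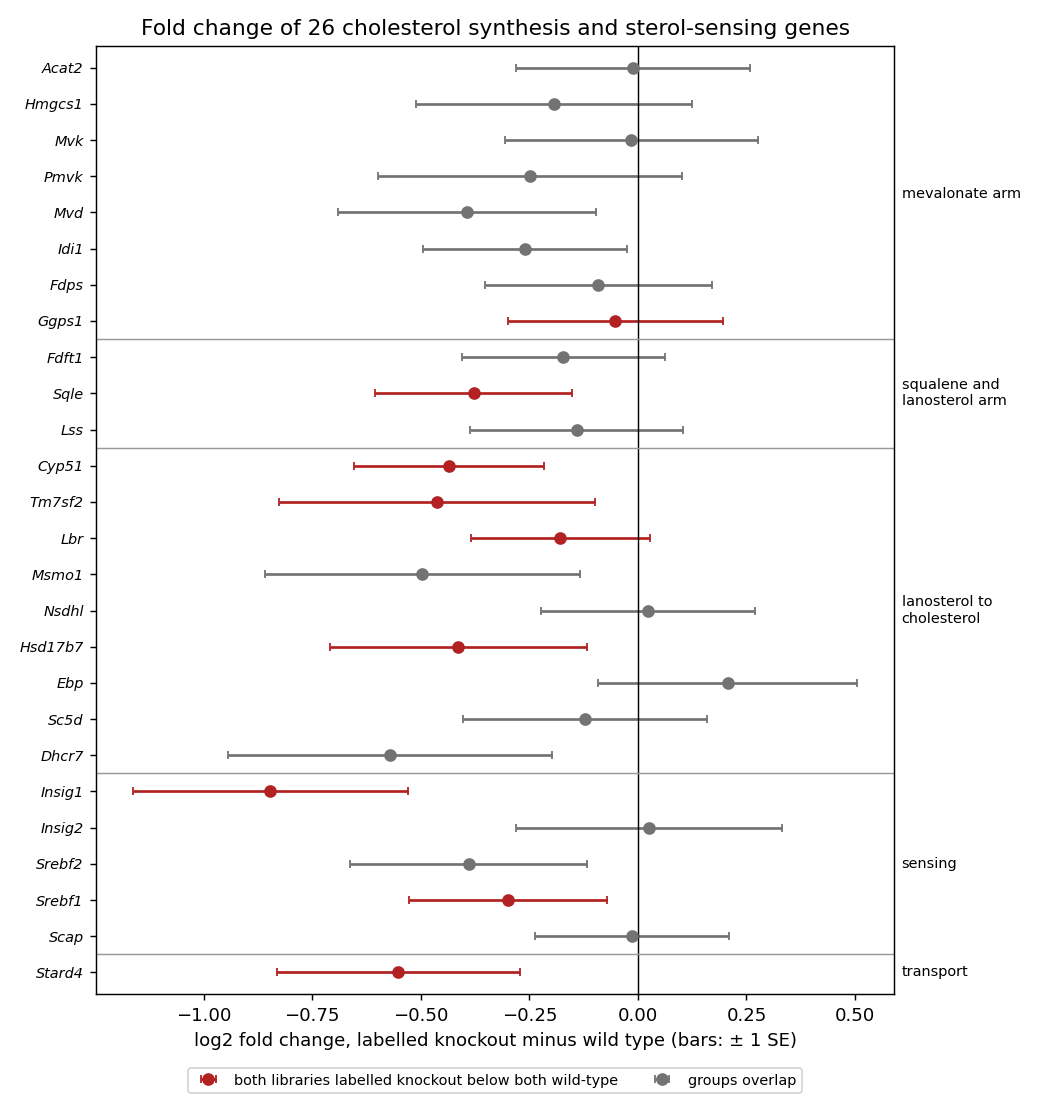
Log2 fold change of each of the 26 genes (x axis, labelled knockout minus wild type, bars ± 1 SE, 2 libraries a group), ordered by step and role. Red marks the 9 genes whose libraries labelled knockout both lay below both wild-type libraries. Insig1 is lowest at -0.85, Ebp highest at 0.21, and 23 of 26 points lie left of 0.

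The difference was unevenly shared between the libraries. Summed over the 26 genes, the level was 3569 CPM in wild type 1 and 2797 CPM in wild type 2, against 2921 CPM in the library labelled knockout 1 and 2219 CPM in that labelled knockout 2. Wild type 2 and labelled knockout 1 were thus close to each other, with wild type 1 above and labelled knockout 2 below them. The means were 3183 ± 546 CPM and 2570 ± 497 CPM (SD, n = 2 each). The groups overlapped, and an exact permutation test of 2 against 2 cannot give a two-sided p below 0.333. Relative to the wild-type mean of each gene on the log2 scale, the median over the genes was 0.13 in wild type 1, -0.13 in wild type 2, -0.11 in labelled knockout 1 and -0.37 in labelled knockout 2. The step within each label was at least as large as the step between labels, where the median fold change was -0.22. The median of wild type 2 minus wild type 1 was -0.25, and 23 of 26 genes were lower in wild type 2 than in wild type 1, against 52.5% of all genes. The median of labelled knockout 2 minus labelled knockout 1 was -0.29, and 19 of 26 were lower in labelled knockout 2, against 50% of all genes. In the same 19 genes labelled knockout 2 was the lowest of the 4 libraries, against 33.4% of all genes.

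Taken singly, the libraries labelled knockout differed in how many genes lay outside wild type. Labelled knockout 2 was below both wild-type libraries for 21 of 26 genes, against 36.6% of all genes, and above both for 2, Nsdhl and Ebp, against 36.9%. Labelled knockout 1 was below both for 12 of 26, against 26.3% of all genes, and above both for 2, Acat2 and Mvk, against 25.4%. The median log2 fold change of -0.22 moved with the libraries kept. It was -0.076 without wild type 1, -0.34 without wild type 2, -0.38 without labelled knockout 1 and -0.13 without labelled knockout 2. In the same order 18, 24, 21 and 19 of the 26 genes were negative, against 46.0%, 48.5%, 50.8% and 52.4% of all genes. Non-overlapping groups on the lower side were found for 11, 20, 21 and 12 of the 26, against 27.1%, 33.9%, 36.6% and 25.3% of all genes, since a group of 1 library separates more easily.

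**Figure D2:**
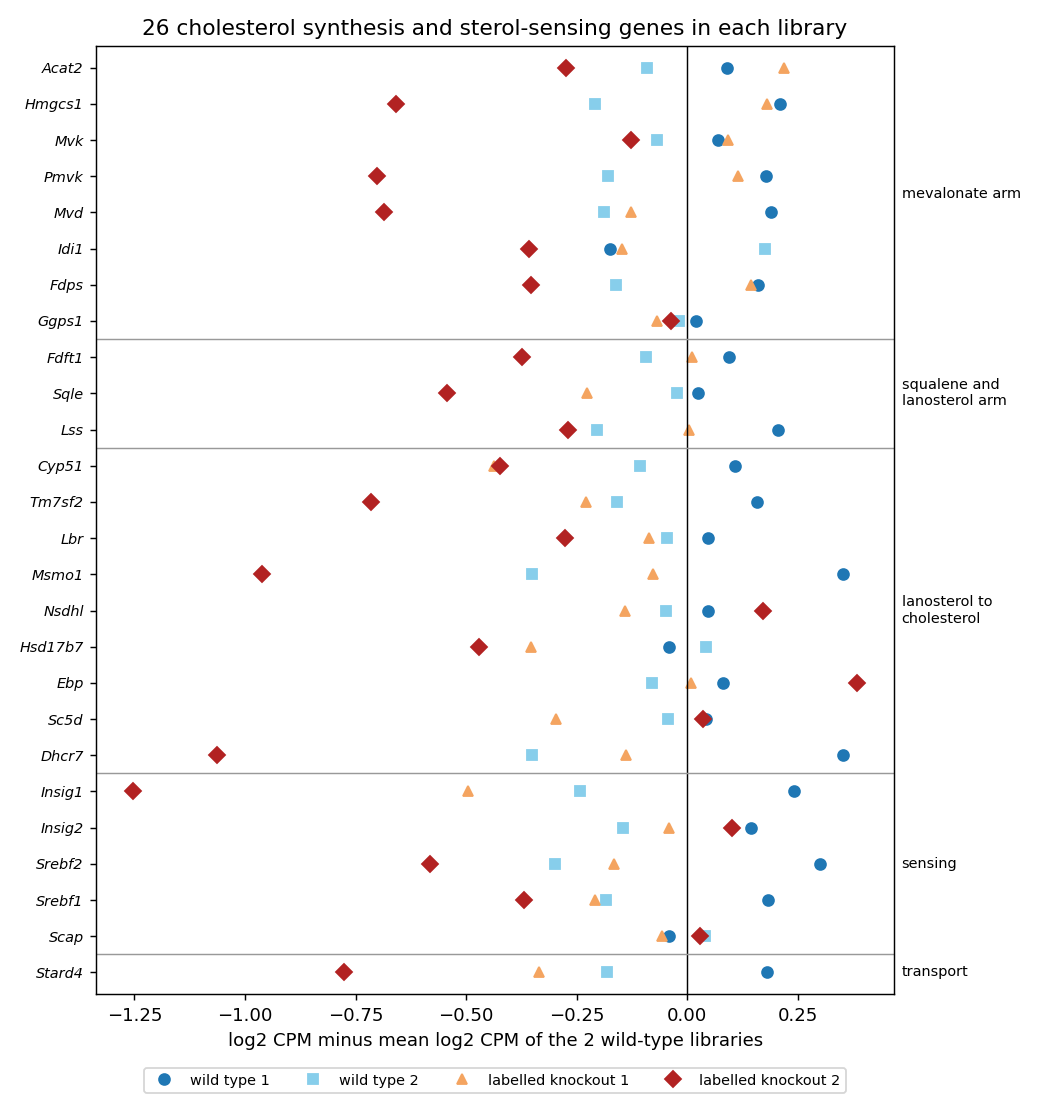
Log2 CPM (prior count 2) of each of the 26 genes in each of the 4 libraries, minus the mean of the wild-type libraries (x axis), grouped by role. Labelled knockout 2 (red diamonds) is the lowest library for 19 genes, and wild type 2 (pale squares) lies below wild type 1 (dark circles) for 23.

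Promoter windows from 250 bases before to 50 bases after the annotated start were taken from RefSeq (GRCm38.p6) for the 22 genes with an entry. The motif CCAAT, bound by NF-Y, was present on either strand in 20 of the 22 genes (90.9%), against 41.1% of all 27025 genes with a window and 43.2% of the 11153 of these that were tested here. The motif GGGCGG, bound by Sp1, was also present in 20 (90.9%), against 38.2% of all genes and 68.5% of those tested. Scap and Acat2 lacked CCAAT, Pmvk and Ggps1 lacked GGGCGG, and 18 genes held both. Matches were pooled over all annotated starts of a gene. In Insig2, which has several starts, CCAAT and GGGCGG lay in windows of different starts, so no window held both. The share of all genes with both motifs was not computed. The SREBP element TCACNCCAC was found in 1 of 22 genes, Hmgcs1, against 1.44% of all genes. The E-box form TCACNTGA was found in 1, Insig2, against 4.78%. No match overlapped one of another motif, and 17 genes had CCAAT within the 100 bases before the start. A match is a description of letters, and windows of this length leave out elements farther away. Only exact matches to these patterns were sought, so a window without a match may still hold a variant of the element.

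The promoters shown are those of the non-overlapping genes with the lowest p-values for which a window was found, so that the shared NF-Y and Sp1 letters can be seen beside the values that follow. Sqle and Stard4 are named only. Each run gives the 250 bases before the start, 5′ to 3′ on the gene's strand in GRCm38.p6, with matches to any of the 4 motifs on either strand in capitals. The Insig1 window is chr5:28071162-28071411, plus strand, that of Cyp51 chr5:4104698-4104947, minus strand, and that of Hsd17b7 chr1:169969206-169969455, minus strand. Srebf1 has 3 annotated starts, and the window printed is the one with both motifs (chr11:60210472-60210721, minus strand).
Insig1: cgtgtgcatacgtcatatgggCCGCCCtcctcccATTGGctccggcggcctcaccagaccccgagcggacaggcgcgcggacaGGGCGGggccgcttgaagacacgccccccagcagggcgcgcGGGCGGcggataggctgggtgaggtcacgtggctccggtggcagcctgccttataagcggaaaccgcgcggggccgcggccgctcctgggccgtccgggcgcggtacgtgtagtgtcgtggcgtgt
Cyp51: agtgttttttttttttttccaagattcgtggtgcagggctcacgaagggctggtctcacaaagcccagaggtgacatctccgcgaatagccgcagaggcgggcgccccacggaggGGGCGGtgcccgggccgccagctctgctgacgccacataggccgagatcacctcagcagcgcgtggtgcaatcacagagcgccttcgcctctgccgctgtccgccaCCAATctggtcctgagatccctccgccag
Hsd17b7: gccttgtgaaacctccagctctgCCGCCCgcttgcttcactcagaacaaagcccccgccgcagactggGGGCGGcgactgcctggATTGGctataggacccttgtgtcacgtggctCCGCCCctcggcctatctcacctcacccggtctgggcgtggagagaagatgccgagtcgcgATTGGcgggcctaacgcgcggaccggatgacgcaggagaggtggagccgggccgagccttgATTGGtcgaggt
Srebf1: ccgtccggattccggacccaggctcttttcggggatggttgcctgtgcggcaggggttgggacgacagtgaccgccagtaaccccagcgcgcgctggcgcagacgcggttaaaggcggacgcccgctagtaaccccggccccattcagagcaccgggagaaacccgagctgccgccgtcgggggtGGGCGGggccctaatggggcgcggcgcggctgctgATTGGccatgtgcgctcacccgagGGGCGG
Hsd17b7 carried 3 CCAAT matches, and Insig1 and Cyp51 carried 1 each.

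The SREBP matches are shown with up to 20 bases on each side, in capitals, since they were the only exact matches to these patterns in the windows. In Hmgcs1 the match began 137 bases before the start (chr13:119690194-119690242, plus strand). In Insig2 the E-box form began 16 bases before one of its annotated starts (chr1:121327679-121327714, minus strand), read on the opposite strand.
Hmgcs1: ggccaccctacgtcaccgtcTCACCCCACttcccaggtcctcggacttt
Insig2: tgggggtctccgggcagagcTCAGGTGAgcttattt
Both genes lay outside the 9 with non-overlapping groups.

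**Figure D3:**
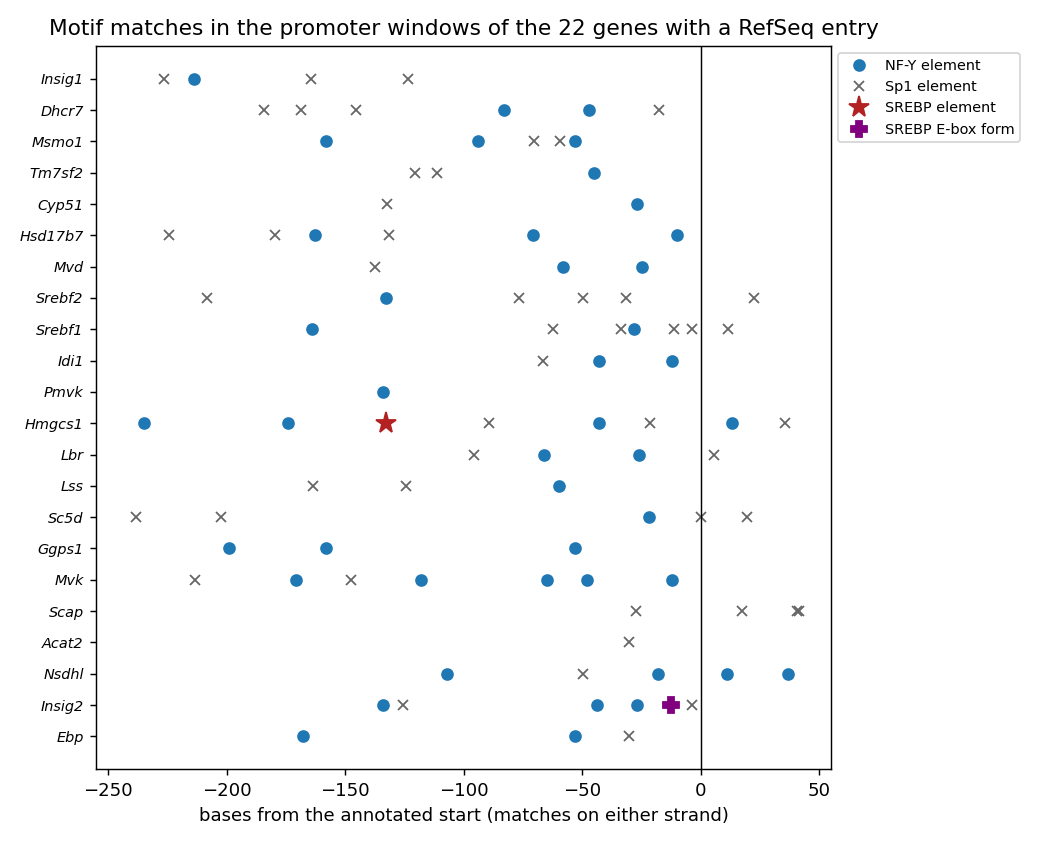
Positions of motif matches (x axis, bases from the annotated start, either strand) in the promoter windows of the 22 genes with an entry, ordered from the lowest fold change (top) to the highest, with the windows of genes with several starts laid over each other. Blue circles (CCAAT) appear in 20 rows and grey crosses (GGGCGG) in 20, while the SREBP element appears in Hmgcs1 only and its E-box form in Insig2 only.

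Among the sensing genes, Insig1 differed most. Insig1, which retains SCAP when sterols are plentiful and is itself an SREBP target, lies on chromosome 5 (28071412 to 28078662, GRCm38.p6). It had 232 and 166 CPM in wild type 1 and 2 against 139 and 82.2 CPM in the libraries labelled knockout 1 and 2. The groups did not overlap, and labelled knockout 2 stood apart at 41.3% of the wild-type mean, while labelled knockout 1 was at 69.9%. The log2 fold change was -0.85 (SE 0.32), with unadjusted p = 0.0320 and adjusted p = 1.00 by the edgeR quasi-likelihood test, and 4.02% of all genes tested had a lower one. It was -0.51 without labelled knockout 2, -1.28 without labelled knockout 1 and -0.58 without wild type 1. Insig2, the paralog that is not driven by SREBP2 in the same way, had 20.7 and 17.0 CPM in wild type against 18.2 and 20.1 CPM in the libraries labelled knockout. Its groups overlapped and its log2 fold change was 0.025 (SE 0.31), which turned negative under upper-quartile scaling (-0.015) and library totals (-0.020).

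Srebf2 encodes SREBP2, the main activator of cholesterol synthesis. It had 756 and 499 CPM in wild type 1 and 2 against 548 and 411 CPM in the libraries labelled knockout 1 and 2. Wild type 1 was well above the rest, and wild type 2 lay below labelled knockout 1, so the groups overlapped (log2 fold change -0.39, SE 0.27). Without wild type 1 that value was -0.058, and without labelled knockout 2 it was -0.19. Srebf1, whose product SREBP1 acts mainly on fatty acid genes, had 222 and 172 CPM in wild type against 169 and 151 CPM in the libraries labelled knockout. Its groups did not overlap, but wild type 2 and labelled knockout 1 differed by little, and the log2 fold change was -0.30 (SE 0.23). Scap, the escort of both factors, had 65.6 and 69.5 CPM in wild type against 64.9 and 68.9 CPM in the libraries labelled knockout. Its libraries were close together and the log2 fold change was -0.014 (SE 0.22). Stard4, a soluble carrier that moves sterol between membranes and an SREBP2 target, had 64.5 and 50.1 CPM in wild type against 45.0 and 33.2 CPM in the libraries labelled knockout. Its groups did not overlap (log2 fold change -0.55, SE 0.28), with labelled knockout 2 lowest and labelled knockout 1 near wild type 2.

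In the mevalonate arm all 8 genes had a negative log2 fold change, against 49.5% of all genes. Of these 8 only Ggps1 had groups that did not overlap, with 12.7% of all genes separated on the lower side. The median of the arm was -0.14, and the libraries labelled knockout were on opposite sides of the wild-type mean, at 0.10 for labelled knockout 1 and -0.36 for labelled knockout 2. Hmgcs1, which makes HMG-CoA and holds the SREBP element shown above, had 323 and 242 CPM in wild type against 317 and 177 CPM in the libraries labelled knockout. Labelled knockout 1 was thus close to wild type 1, and labelled knockout 2 below all others. The log2 fold change was -0.19 (SE 0.32). The same order held for Pmvk, phosphomevalonate kinase, with 36.9 and 28.8 CPM in wild type against 35.3 and 20.01 CPM in the libraries labelled knockout (log2 fold change -0.25, SE 0.35). Fdps, which makes farnesyl diphosphate at the fork to sterols and prenyl groups, had 141 and 113 CPM in wild type against 139 and 98.7 CPM in the libraries labelled knockout (log2 fold change -0.092, SE 0.26). Acat2, the thiolase that starts the arm, was highest in labelled knockout 1 and lowest in labelled knockout 2, at 59.8 and 42.4 CPM against 54.7 and 48.3 CPM in wild type (log2 fold change -0.011, SE 0.27). Without labelled knockout 2 the log2 fold changes of Hmgcs1, Pmvk, Fdps and Acat2 were 0.17, 0.11, 0.14 and 0.22.

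Mvd, the decarboxylase that yields isopentenyl diphosphate, had the lowest value of the arm. It had 58.8 and 45.2 CPM in wild type against 47.2 and 32.0 CPM in the libraries labelled knockout. Labelled knockout 1 lay inside the wild-type range, and the log2 fold change was -0.39 (SE 0.30). Idi1, the isomerase of isopentenyl diphosphate, was alone in this arm in being higher in wild type 2 than in wild type 1 (113 and 144 CPM against 115 and 99.6 CPM, log2 fold change -0.26, SE 0.24). Mevalonate kinase, Mvk, had 22.3 and 20.3 CPM in wild type against 22.7 and 19.5 CPM in the libraries labelled knockout (log2 fold change -0.015, SE 0.29). Ggps1, which makes the geranylgeranyl group for prenylation and leads away from sterols, had 37.2 and 36.2 CPM in wild type against 35.0 and 35.8 CPM in the libraries labelled knockout. Its groups did not overlap, yet the 4 libraries lay between 35.0 and 37.2 CPM, and the log2 fold change was -0.052 (SE 0.25).

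The 3 enzymes from farnesyl diphosphate to lanosterol were all lowest in labelled knockout 2. Sqle, squalene epoxidase, an oxygen-using and rate-controlling step, had 128 and 124 CPM in wild type against 107 and 86.3 CPM in the libraries labelled knockout. The wild-type libraries were close together and both libraries labelled knockout lay below them (log2 fold change -0.38, SE 0.23). Fdft1, squalene synthase, had 170.1 and 149 CPM in wild type against 161 and 123 CPM in the libraries labelled knockout and Lss, which closes the sterol ring, had 155 and 117 CPM in wild type against 135 and 112 CPM in the libraries labelled knockout. In both genes labelled knockout 1 lay between the wild-type libraries, and the log2 fold changes were -0.17 (SE 0.23) and -0.14 (SE 0.24).

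From lanosterol to cholesterol 7 of 9 genes had a negative log2 fold change, against 49.5% of all genes, and 4 had groups that did not overlap, all lower, against 12.7%. The median was -0.41. Cyp51, which removes a methyl group from lanosterol, lies on chromosome 5 (4080674 to 4104697, GRCm38.p6) and had 137 and 118 CPM in wild type 1 and 2 against 93.5 and 94.5 CPM in the libraries labelled knockout 1 and 2. Its libraries labelled knockout were nearly equal, at 73.6% and 74.3% of the wild-type mean, unlike those of Insig1. The log2 fold change was -0.43 (SE 0.22), with unadjusted p = 0.0866 and adjusted p = 1.00 by the edgeR quasi-likelihood test. Hsd17b7, a sterol ketone reductase, showed a similar shape at a lower level, with 21.2 and 22.5 CPM in wild type against 17.1 and 15.7 CPM in the libraries labelled knockout (log2 fold change -0.41, SE 0.30). Its libraries within each label differed by less than the labels did.

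Tm7sf2 and Lbr encode reductases for the same step, and LBR is also a receptor of the nuclear lamina. Tm7sf2 had 17.4 and 13.9 CPM in wild type against 13.3 and 9.46 CPM in the libraries labelled knockout (log2 fold change -0.46, SE 0.36), with wild type 2 and labelled knockout 1 close together. Lbr, far more abundant, had 254 and 238 CPM in wild type against 232 and 203 CPM in the libraries labelled knockout (log2 fold change -0.18, SE 0.21). The groups did not overlap in either gene, and labelled knockout 2 was lowest in both.

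Msmo1 and Dhcr7 had low fold changes that came with wide spreads inside each label. Msmo1, which oxidises methyl groups of sterol intermediates, had 246 and 151 CPM in wild type 1 and 2 against 183 and 99.0 CPM in the libraries labelled knockout 1 and 2 (log2 fold change -0.50, SE 0.36). Dhcr7, a final reductase of the pathway, had 188 and 116 CPM in wild type 1 and 2 against 134 and 70.5 CPM in the libraries labelled knockout 1 and 2 (log2 fold change -0.57, SE 0.37). In both genes labelled knockout 1 lay between the wild-type libraries, and labelled knockout 2 was about as far below labelled knockout 1 as wild type 2 was below wild type 1. These differences were -0.88 and -0.70 on the log2 CPM scale for Msmo1, and -0.92 and -0.70 for Dhcr7.

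The remaining enzymes of this stretch did not share the low values of labelled knockout 2. Ebp, the sterol isomerase, was highest there, with 22.4 and 20.01 CPM in wild type against 21.3 and 27.7 CPM in the libraries labelled knockout (log2 fold change 0.21, SE 0.30). Nsdhl, a sterol dehydrogenase that like Ebp is X-linked, had 52.6 and 49.3 CPM in wild type against 46.2 and 57.3 CPM in the libraries labelled knockout (log2 fold change 0.023, SE 0.25, turning to -0.018 under upper-quartile scaling and -0.024 with library totals). Sc5d, the sterol desaturase, had 28.8 and 27.2 CPM in wild type against 22.8 and 28.7 CPM in the libraries labelled knockout (log2 fold change -0.12, SE 0.28), with labelled knockout 1 the lowest library. In all 3 genes the groups overlapped.

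**Figure D4:**
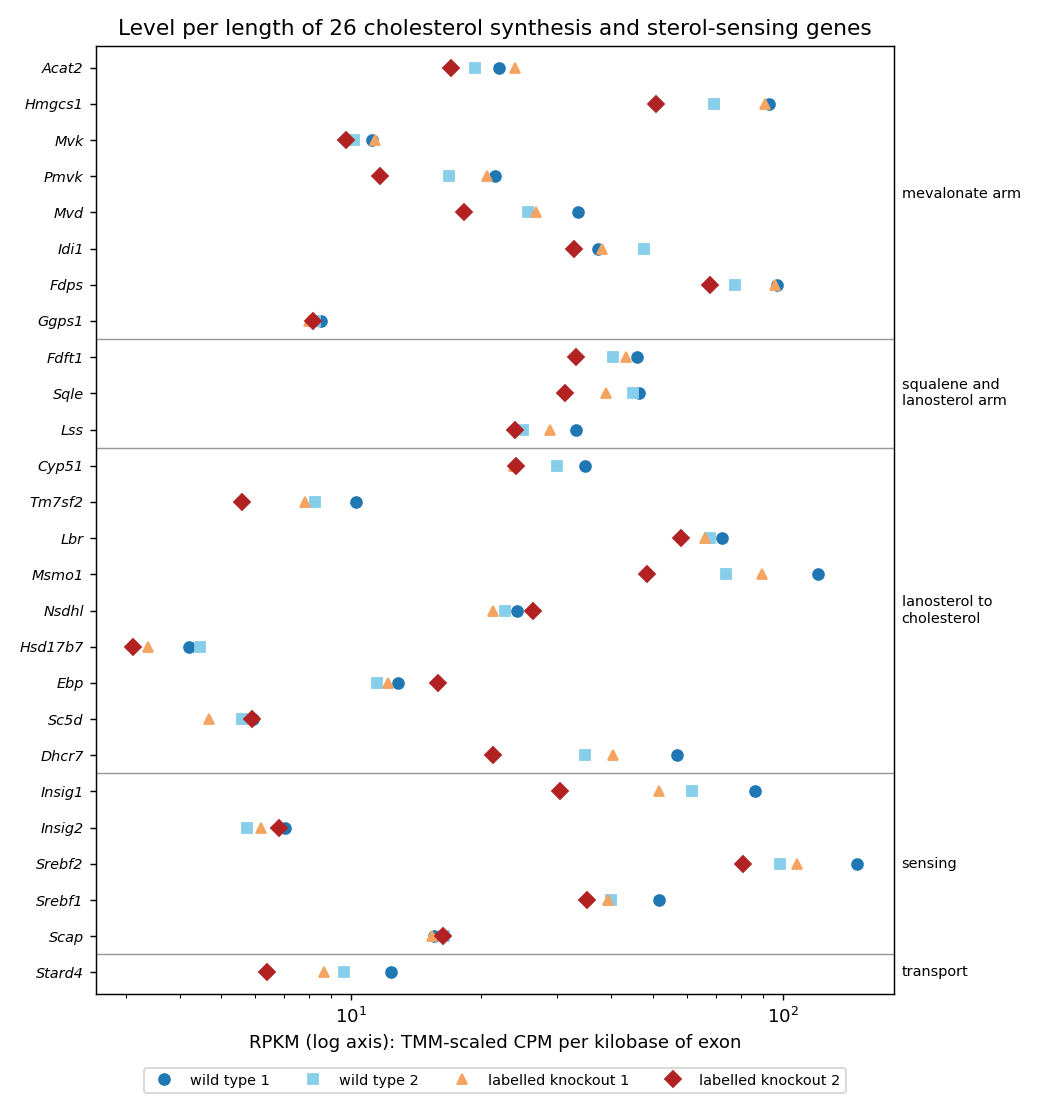
Level of each of the 26 genes in each library as RPKM on a log axis (TMM-scaled CPM per kilobase of annotated exon), grouped by role. Srebf2 is highest and Hsd17b7 lowest in wild type by mean.

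Levels between genes can be compared only per length, as CPM per kilobase of exon (RPKM). In wild type the highest were Srebf2 (124 ± 35.8 RPKM, SD, n = 2), Msmo1 (97.3 ± 32.9 RPKM), Fdps (87.4 ± 13.7 RPKM), Hmgcs1 (81.1 ± 16.5 RPKM), Insig1 (73.8 ± 17.4 RPKM) and Lbr (70.2 ± 3.21 RPKM). Neighbours among these 6 did not differ beyond their spread. In the libraries labelled knockout Insig1 stood at 41.0 ± 14.9 RPKM and Lbr at 62.0 ± 5.73 RPKM (SD, n = 2). Lowest in wild type were Insig2 (6.38 ± 0.907 RPKM), Sc5d (5.76 ± 0.243 RPKM) and Hsd17b7 (4.33 ± 0.181 RPKM). Insig2 and Sc5d overlapped between wild-type libraries, and Hsd17b7 lay below both. Insig2 was thus far below Insig1 in level, and Tm7sf2 (9.25 ± 1.44 RPKM) was far below Lbr, the other reductase of the shared step. Whether the fold changes of Insig1 and Insig2 differed was not tested.

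Some counts may hold reads of other genes, since neither the strand setting nor the handling of reads with several matches is given in the labels. Acat2 shares 98.5% identity over 1414 bases with Acat3, which had 1680 and 1704 counts in wild type and 1808 and 1748 in the libraries labelled knockout, so the value of Acat2 is uncertain. It also shares 445 bases with its neighbour Tcp1. Fdps and Idi1 have near-identical copies, Gm3571 (98.9% over 1062 bases) and Gm13502 (100% over 684 bases), which were not analysed here. Fdps also shares 1124 exon bases on the same strand with Gm43738, not analysed here either. Tm7sf2 shares 532 exon bases with Vps51 on the same strand. On the opposite strand Fdft1 shares 774 exon bases with Ctsb, Ggps1 257 with Arid4b, Cyp51 166 with Akap9, Srebf1 109 with Rai1 and Lss 381 with 4930483K19Rik. Opposite-strand overlaps with genes not analysed here were found for Hmgcs1, Idi1, Lbr and Scap. Without a stated strand setting, reads of such pairs cannot be told apart.

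Over 7 other lists of the sterol and lipid network the median log2 fold change ran from -0.19 to 0.049, and the edgeR test called 0 genes in any of them. Of 8 genes that process or carry SREBPs, 3 had a negative log2 fold change and the median was 0.031, with Sec23a, a coat protein of the vesicles that leave the endoplasmic reticulum, at -0.30 (SE 0.22) and non-overlapping groups. Of 8 genes of sterol-regulated degradation 4 were negative (median 0.000510). Ube2g2, a ubiquitin-conjugating enzyme, was at -0.33 (SE 0.25) and Rnf145, a ubiquitin ligase, at 0.26 (SE 0.21), the only gene of these lists whose groups did not overlap on the higher side. Of 16 fatty acid genes 11 were negative, with a median of -0.11. Groups did not overlap on the lower side for 3 of the 16 (18.8%), near the 12.7% of all genes. Scd1, a stearoyl-CoA desaturase, had 325 and 258 CPM in wild type against 227 and 162 CPM in the libraries labelled knockout (log2 fold change -0.58, SE 0.25). Fads2, a desaturase of polyunsaturated fatty acids, was at -0.36 (SE 0.23) and Aacs, which activates acetoacetate for lipid synthesis, at -0.24 (SE 0.26).

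Of 9 genes of LXR and sterol efflux 6 passed the filter, 3 of them negative, with a median of -0.047, and Lpcat3, a phospholipid remodelling enzyme, was at -0.14 (SE 0.22) with non-overlapping groups. Sterol handling genes, 20 in all, were mixed. Of these 19 passed the filter, 9 of them negative, with a median of 0.016. Groups did not overlap for 5 of the 19 on the lower side (26.3%) and for 0 on the higher side, against 12.7% and 11.7% of all genes. Among these 5, Scarb1, the receptor for high-density lipoprotein, had 143 and 87.1 CPM in wild type against 84.5 and 55.6 CPM in the libraries labelled knockout (log2 fold change -0.71, SE 0.33). Lipa, the lysosomal lipase of cholesteryl esters, was at -0.49 (SE 0.31) and Fdx1, a mitochondrial ferredoxin, at -0.18 (SE 0.35). The isoprenoid branches, which start from the mevalonate arm but lead away from sterols, had 3 of 15 negative and a median of 0.049, and the gene with the highest mean CPM over the 4 libraries, Rabggtb, which attaches geranylgeranyl groups to Rab proteins, was at 0.37 (SE 0.28) with overlapping groups. Of 6 oxysterol enzymes 5 passed the filter, 4 of them negative, with a median of -0.19. Cyp39a1, an oxysterol hydroxylase, was at -0.18 (SE 0.41) with non-overlapping groups, and Ch25h had 0 counts in every library.

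**Figure D5:**
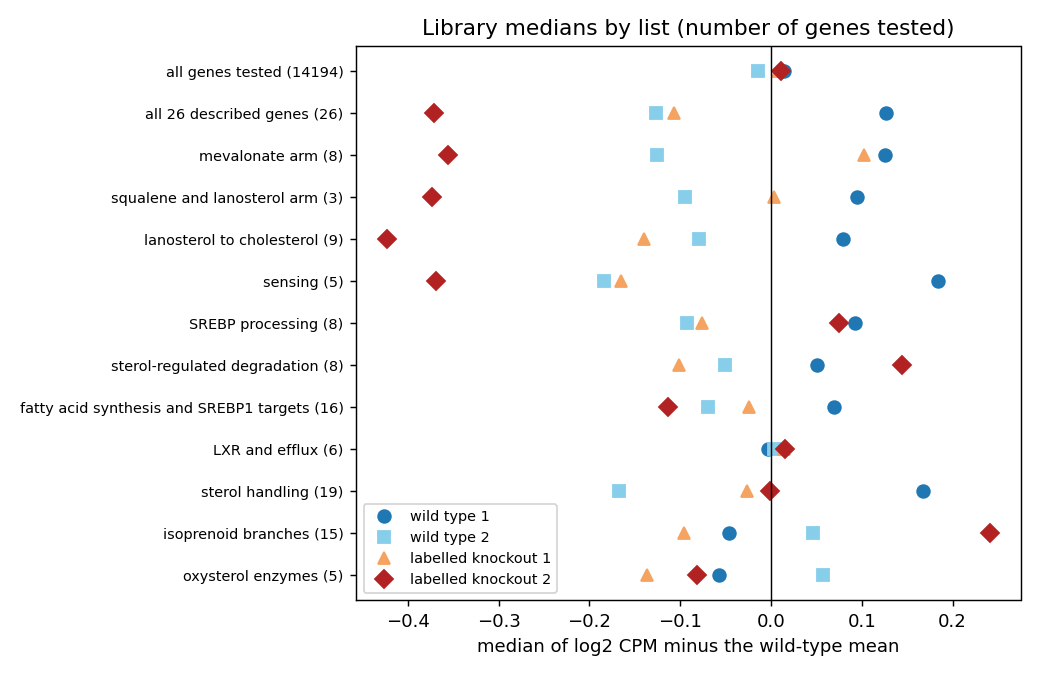
Median of log2 CPM minus the wild-type mean in each library (x axis), for all genes tested, the 26 genes, their roles and the other lists, with the number of genes tested in brackets. Labelled knockout 2 lies between -0.42 and -0.36 in the 4 roles plotted, and between -0.11 and 0.24 in the other 7 lists.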

How the data were processed

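Total RNA of 4 libraries was primed with random hexamers and sequenced on a BGISEQ instrument, per the labels' protocols. The authors deposited raw counts per gene as whole numbers. HISAT2, featureCounts and mm10 were used, per the submitters' processing notes. Their versions, the annotation and the strand setting were not given in the sources used here.

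Entrez numbers were matched to symbols in the RefSeq table of GRCm38.p6 (24061 of 24116). The test was edgeR 4.0.16 in R 4.3.3 with filterByExpr, TMM scaling, the quasi-likelihood F test on genotype, and Benjamini-Hochberg adjustment over all 14194 genes tested, at a threshold of 0.05. SE was taken as the size of the log2 fold change over the root of its F statistic. Log2 CPM used a prior count of 2. RPKM used merged exons of the GENCODE basic annotation. Copies were sought with BLAST 2.17.0, at 98% identity over 400 bases. The fit was tested on simulated data.

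The genes, the lists and the tests were chosen with earlier results of these data known. All 26 genes were named. From each other list up to 3 genes per direction were named, the largest changes among those with non-overlapping groups and a mean of at least 5 CPM, or else the gene with the highest mean CPM over the libraries. Alternatives were other scalings, filters and tools (DESeq2 1.42.0, limma-voom 3.58.1, the edgeR likelihood ratio test), a replicate block, each library left out, and a shorter promoter window.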

Additional observations from a re-analysis of the deposited data

How the results depend on the processing

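Under other scalings, filters and tools, 23 to 25 of the 26 genes had a negative log2 fold change, against 49.0% to 55.7% of all genes. Groups did not overlap on the lower side for 9 or 10 of the 26, against 12.0% to 15.1% of all genes, and 0 were called. The counts of 25 and 10 came under upper-quartile scaling and library totals. There the shares over all genes were also highest, at 54.3% and 55.7% negative and 14.1% and 15.1% non-overlapping and lower. DESeq2 called 2 and the edgeR likelihood ratio test 4 of all genes, against 0. Upper-quartile scaling and library totals turned Nsdhl to -0.018 and -0.024 and Insig2 to -0.015 and -0.020.

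With each library left out in turn, 0 of the 26 genes were called, and 0 to 91 of all genes. The 91 came without labelled knockout 1, and 8 came without labelled knockout 2. Then 18 to 24 of the 26 genes were negative, and 11 to 21 were non-overlapping and lower (11, 20, 21 and 12 without wild type 1, wild type 2, labelled knockout 1 and labelled knockout 2, against 27.1%, 33.9%, 36.6% and 25.3% of all genes). Non-overlapping and higher were 0 to 2 of the 26. The share of all genes on that side was not computed for these settings, so nothing is read from this count. Fold changes turned for Acat2 (-0.28 to 0.22), Hmgcs1 (-0.68 to 0.17), Mvk (-0.13 to 0.094), Pmvk (-0.72 to 0.11), Fdps (-0.36 to 0.14), Fdft1 (-0.38 to 0.011), Lss (-0.32 to 0.079), Nsdhl (-0.14 to 0.17), Sc5d (-0.29 to 0.033), Insig2 (-0.11 to 0.18) and Scap (-0.055 to 0.036). A library left alone in its group was assumed to vary like the other group. The cause was not tested.

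A replicate block called 0 genes and gave a median of -0.25. By the edgeR quasi-likelihood test 4 of the 26 genes (Insig1, Dhcr7, Msmo1 and Stard4) then had an unadjusted p under 0.05, against 735 of the 14194 genes tested. The deviations of same-numbered libraries correlated at r = 0.35 across genes. The labels give the 2 pairs a number in common and do not say whether they also shared a batch, which was not tested. The shorter promoter window left the counts of genes with each motif as they were. With 2 libraries a group, even changes of 2-fold were mostly missed. In the simulated data 14.3% of 49 genes given a 2-fold change passed the threshold, and 72% of 50 genes given a 4-fold change. Those genes were drawn at random from all genes tested and not matched to the 26 in level, so the shares for the 26 may differ. Every change among the 26 genes was smaller than 2-fold, the largest being the log2 fold change of -0.85 for Insig1. That none of them passed therefore says little about whether they differed.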

Other observations

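The sterol and lipid genes given here lie outside the 26 and were picked after their values were seen. Npc2, a carrier of cholesterol inside lysosomes, had 140.3 and 111 CPM in wild type against 103 and 264 CPM in the libraries labelled knockout. Soat1, which makes cholesteryl esters, had 78.2 and 66.3 CPM in wild type against 59.5 and 127 CPM in the libraries labelled knockout, and Vldlr, a lipoprotein receptor, had 4.81 and 2.33 CPM in wild type against 4.23 and 15.3 CPM in the libraries labelled knockout. Abca1, a sterol exporter, had 18.5 and 19.7 CPM in wild type against 16.5 and 40.2 CPM in the libraries labelled knockout. In these 4 genes labelled knockout 2 was the highest library. Labelled knockout 2 lay above both wild-type libraries for 36.9% of all genes, a looser measure that leaves out the other library labelled knockout. The share of all genes in which it was the highest of the 4 libraries was not computed. The 4 picked genes do not stand for their lists. Labelled knockout 2 was the lowest library for 7 of the 19 sterol handling genes tested and for 0 of the 6 LXR and efflux genes tested. It was the lowest for 19 of the 26 genes of cholesterol synthesis and sensing, against 33.4% of all genes. Abcg1, another sterol exporter, had no single library apart from the rest but differed most between the wild-type libraries among these 5 genes, with 115 and 36.7 CPM in wild type against 78.2 and 43.6 CPM in the libraries labelled knockout. No gene named here passed the edgeR quasi-likelihood test.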
